A study of Mus musculus with 6 samples.

Results

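Polysomal mRNAs bound to astrocyte ribosomes were searched for the transcripts of the blood vessel wall. Named markers of that wall, 10 genes in all, were followed: 8 of endothelial cells (Pecam1, Flt1, Kdr, Tek, Tie1, Eng, Ly6c1 and Slco1c1) and 2 of mural cells, the pericytes and smooth muscle cells around the endothelium (Pdgfrb and Rgs5). They were 10 of the 22086 genes to which the deposited transcripts could be matched. Each gene was read from 1 transcript, the one whose counts, added over all 6 libraries of both genotypes, were largest.

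The RNA came from the hippocampus of 6-week-old mice, and was recovered by TRAP (translating ribosome affinity purification), in which a GFP-tagged ribosomal protein, L10a, is pulled down with an antibody together with the mRNAs on the tagged ribosomes. All mice carried the Aldh1l1-RPL10aGFP transgene, in which the astrocyte promoter of Aldh1l1 drives the tagged protein, and all carried Cx43 fl/fl, the floxed allele of connexin 43. The 3 control libraries, Cx43FL, had no Cre, and the 3 Cx43KO libraries also carried Gfap Cre, the human GFAP promoter driving Cre; the comparison asked how the loss of this astrocyte gap junction protein alters the mRNAs under translation. The transgene was kept heterozygous in the study, the RNA was amplified from a small input before sequencing, and how many animals stood behind a library was not given in the sources used here. The p-values therefore measure the spread between libraries, which may in part be technical.

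Brain capillaries are tubes of endothelial cells joined by tight junctions, wrapped by pericytes and then by the endfeet of astrocytes. Vascular endothelial growth factors (VEGF) act on the endothelium through Flt1 and Kdr, angiopoietins act through Tek with its partner Tie1, and Eng is a co-receptor for ligands of the TGF-beta family. Pericytes are held to the vessel by endothelial PDGF-B acting on their receptor, Pdgfrb. Connexin 43 is one of the gap junction proteins of astrocyte endfeet.

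The libraries differed in depth and in make-up. Between 33423491 and 36869534 counts lay on transcripts in Cx43FL and in Cx43KO replicate 1, against 55289727 and 77030398 in Cx43KO replicates 2 and 3. Gja1, the gene of connexin 43, had 1396, 1382 and 1264 counts in Cx43FL and 1405, 2449 and 3079 in Cx43KO. In CPM (counts scaled to a common library size, with TMM factors) its groups differed by 0.08 on the log2 scale (Benjamini-Hochberg adjusted p from edgeR's quasi-likelihood fit = 0.949), so the deposited values did not show the deletion, and group names below are those of the labels. Cx43KO replicate 1 stood apart from the others: it lay at 123 on the first principal component (41.0% of the variance) and the other 5 between −50.7 and −0.42. The 12 astrocyte markers summed to 17233 CPM in it and to 36785 to 52869 CPM elsewhere, and the 12 neuron markers to 7903 CPM in it and to 2199 to 4528 CPM elsewhere.

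Most of the vessel genes were close to the limit of detection, and Slco1c1 was not. Slco1c1, a thyroid hormone transporter found at the blood-brain barrier and known also from astrocytes and choroid plexus, had a mean of 31.4 CPM per kilobase of transcript over the 6 libraries, above 88.3% of all genes. Rgs5, a regulator of G protein signalling and a marker of pericytes, followed at 5.75 CPM per kilobase (63.5% of genes lay lower), and Pdgfrb at 2.21 (51.3%). The other endothelial genes were lower still, on the same scale: Ly6c1 at 1.45, Eng at 1.01, Flt1 at 0.400, Kdr at 0.278, Pecam1 at 0.177, Tie1 at 0.0376 and Tek at 0.0193. Tek thus stood above 27.3% of all genes. Of the 22086 genes, 5250 had 0 counts in all 6 libraries, and these count as lower in each of the percentages given. The first step of this order was the only one at which the libraries did not overlap. The lowest Slco1c1 library had 26.7 CPM per kilobase and the highest Rgs5 library 15.2. Rgs5 was above Pdgfrb in 6 of 6 libraries and Pdgfrb above Ly6c1 in 5 of 6, although their ranges overlapped, and Flt1 was above Kdr in only 2 of 6. From Rgs5 down, the ranges of neighbouring genes therefore overlapped. Compared within each library, only the step from Rgs5 to Pdgfrb among these kept its order in all 6.

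**Figure D1:**
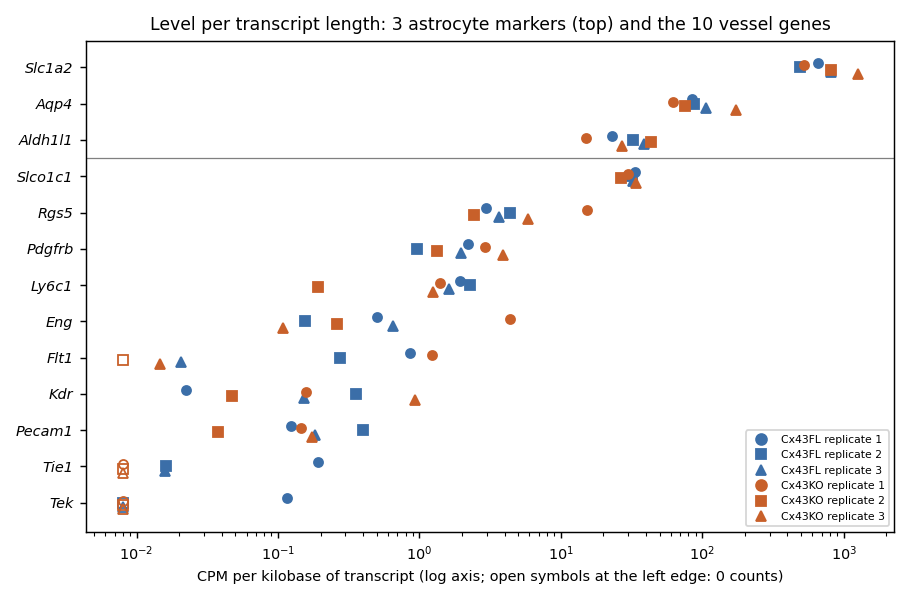
Level of each vessel gene and of the astrocyte genes Slc1a2, Aqp4 and Aldh1l1 in each library, in CPM per kilobase of transcript on a log axis, with open symbols at the left edge for libraries with 0 counts. Slco1c1 lay apart from the other 9 vessel genes (lowest library 26.7), and those 9 ran down to 0 counts in Flt1, Tie1 and Tek.

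Slco1c1 made up 75.4%, 76.9% and 77.2% of the counts of the 10 genes in Cx43FL, and 47.8%, 82.0% and 67.2% in Cx43KO. The share of the vessel wall in the purified RNA therefore depended on whether this gene was counted with it. Set against the 12 astrocyte markers, the 7 other endothelial genes had 28.1, 19.0 and 12.5 counts per 100000 astrocyte marker counts in Cx43FL and 145, 3.82 and 14 in Cx43KO. The mural pair had 64.6, 61.2 and 62.8 in the controls against 453, 46.9 and 85.5, and Slco1c1 had 284, 268 and 254 against 548, 231 and 203.5. Cx43KO replicate 1 was the highest library in all 3 ratios, and it was also the library with the lowest astrocyte marker sum. The libraries include no unpurified RNA, so how far a vessel transcript was enriched or carried over in the pull-down could not be measured. In such RNA, fewer cells of a type and less RNA per cell cannot be told apart either.

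The sequences of 2 of the genes bear on what their counts can mean, and they are shown before the values. Flt1 (GRCm38 chromosome 5, 147561604 to 147726011, minus strand) was read from its short transcript, of 6292 bases and 13 exons. The full-length transcript, of 30 exons and 6895 bases, has the same 2226 bases up to the end of exon 13. There the short transcript reads on for 4066 bases into the following intron, which gives the short, soluble form that lacks the membrane span and the kinase, whereas the full-length transcript is spliced to exon 14. The stretches below, from the GENCODE annotation and genome of GRCm38, run across this point, with the last 30 shared coding bases in lower case and the bases that differ by transcript in capitals. The first is chr5:147639133-147639254, the remaining coding part of the short transcript, and the second runs from the same start into exon 14, ending at position 147634464.
Flt1, short: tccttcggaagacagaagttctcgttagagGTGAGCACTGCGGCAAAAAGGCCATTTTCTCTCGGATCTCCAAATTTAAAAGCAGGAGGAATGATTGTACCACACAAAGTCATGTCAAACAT
Flt1, full-length: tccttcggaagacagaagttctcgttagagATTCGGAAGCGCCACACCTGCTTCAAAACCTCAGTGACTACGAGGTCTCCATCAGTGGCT

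Ly6c1 (chromosome 15, 75044018 to 75048830, minus strand), which encodes a small surface protein anchored by GPI on brain endothelium, has a near copy in Ly6c2, a gene known from monocytes and lymphocytes. Their coding sequences of 393 bases differed at 9 positions (97.7% identity) and held an identical run of 188 bases, longer than the 50-base reads. The first 90 coding bases are shown as in the mRNA of Ly6c1 (exons within chr15:75047450-75048511) and Ly6c2 (within chr15:75110608-75111667), both on the minus strand, with the 6 differing bases in capitals.
Ly6c1: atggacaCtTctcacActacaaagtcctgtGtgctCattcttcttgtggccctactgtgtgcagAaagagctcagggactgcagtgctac
Ly6c2: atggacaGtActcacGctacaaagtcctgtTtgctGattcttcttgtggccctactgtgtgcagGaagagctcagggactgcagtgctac
Of the 795 windows of 50 bases along the Ly6c1 transcript, 292 (36.7%) also occurred in a transcript of Ly6c2 or Ly6a. Reads that mapped to more than 1 place were removed in the study, so the Ly6c1 counts are a lower limit of uncertain size.

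No vessel gene passed the test for genotype. Of the 10, 7 had counts high enough to be tested, and Pecam1, Tek and Tie1 did not. Among the 7, 0 were called higher and 0 lower in Cx43KO (edgeR's quasi-likelihood test, Benjamini-Hochberg adjusted p below 0.05 and a mean normalized count above 50), against 0.00738% of the 13545 genes tested called higher and 0% called lower, which is a background of a single gene. The lowest adjusted p among them was 0.632, for Rgs5. None had an unadjusted p below 0.05, which 5.66% of all genes tested reached upward and 2.67% downward, and DESeq2 called 0 of the 4 to which it gave an adjusted p, against 0.781% of its genes higher and 0.11% lower. It gave none to Kdr, Eng and Ly6c1. All Cx43KO libraries stood higher than all controls in 0 of the 7 (background 8.08%) and lower in 1, Ly6c1 (background 7.45%). The median difference of the 7 was 0.66 on the log2 scale, beside 0.07 over all genes tested, with 5 above 0 and 2 below. This median depended on the filter. Without it all 10 were fitted, with Pecam1, Tek and Tie1 at −0.97, −4.85 and −5.63, and their median was −0.0053.

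**Figure D2:**
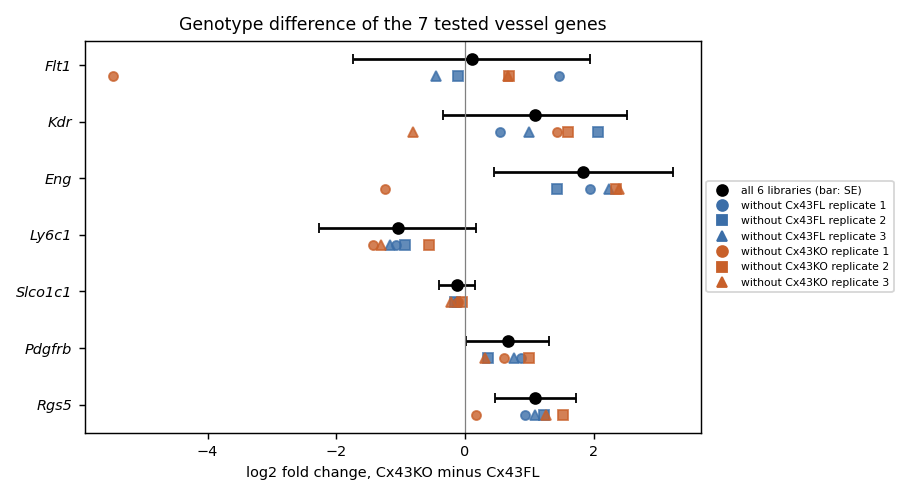
Difference between genotypes (Cx43KO minus Cx43FL, log2) of the 7 vessel genes that were tested, with bars of 1 standard error, and as small points the same difference after omitting single libraries. The bars ran from 0.28 (Slco1c1) to 1.85 (Flt1), and the points of Flt1, Kdr and Eng fell on both sides of 0.

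Pecam1 (PECAM-1 or CD31, the adhesion protein of endothelial junctions; chromosome 11, 106654217 to 106750628, minus strand) had 4, 13 and 6 counts in Cx43FL and 5, 2 and 12 in Cx43KO. The counts were low in all 6 libraries and the groups overlapped. The levels were 0.506 ± 0.315 CPM in Cx43FL and 0.254 ± 0.153 in Cx43KO (SD, n = 3 each; exact 2-sided permutation p = 0.4 for log2 of CPM with 0.5 added, where 0.1 is the smallest p that 3 against 3 libraries allow). These counts were not on coding sequence. The transcript read is a single exon of 2142 bases at chr11:106661185-106663326, annotated as a retained intron, and it lies inside intron 14 of the 15-exon coding transcript, with which it shares 0 bases. The coding transcript had 23, 3 and 1 counts in Cx43FL and 1, 6 and 0 in Cx43KO. Intronic and coding counts thus ordered the libraries differently: Cx43FL replicate 1 had the most coding counts, and Cx43FL replicate 2 the most intronic ones.

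Flt1, the high-affinity receptor for VEGF-A, VEGF-B and PlGF, had 82, 26 and 2 counts on its short transcript in Cx43FL and 125, 0 and 3 in Cx43KO. The first library of each genotype was the highest and 3 of the others (Cx43FL replicate 3, Cx43KO replicates 2 and 3) were near 0, so that the groups overlapped over most of their range. The levels were 2.42 ± 2.70 CPM in Cx43FL and 2.62 ± 4.45 in Cx43KO (SD, n = 3 each), a difference of 0.10 ± 1.85 on the log2 scale (SE; Benjamini-Hochberg adjusted p from edgeR's quasi-likelihood fit = 0.993). The exact 2-sided permutation test gave p = 0.8, for a difference of the opposite sign (−0.59). Without Cx43KO replicate 1 the fitted difference was −5.47, against 0.10 with it.

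The full-length Flt1 transcript had 122, 19 and 18 counts in Cx43FL and 1, 45 and 7 in Cx43KO. The 2 forms were therefore not high in the same libraries. Reads on the shared exons appear to have been added to both transcripts, since 1878 of the 8742 genes with at least 2 transcripts of 100 or more counts had identical counts on a pair of transcripts in all 6 libraries. On that reading, the excess of one form over the other is a lower limit on the reads in its own part. Cx43KO replicate 1 had at least 124 of its 125 counts in the part specific to the short form, the intronic extension that begins with the capitals shown above. Cx43KO replicate 2 had at least 45 counts in the part specific to full-length Flt1 and 0 on the short one, and Cx43FL replicate 1 had at least 40. Cx43FL replicate 2, with 26 counts on the short form and 19 on the full-length one, had at least 7 in the short part. The excess thus lay on either form within each genotype, in Cx43FL toward the short form by this small margin alone. Whether counts in the intronic extension came from finished short mRNA or from unspliced RNA was not tested.

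Kdr (VEGF receptor 2, the main signalling receptor for VEGF-A; chromosome 5, 75932827 to 75978458, minus strand) had 2, 32 and 14 counts in Cx43FL and 15, 7 and 178 in Cx43KO. A single library, Cx43KO replicate 3, held most of them, and the other 5 libraries overlapped. The levels were 1.06 ± 1.0 CPM in Cx43FL and 2.24 ± 2.84 in Cx43KO (SD, n = 3 each), a difference of 1.08 ± 1.43 on the log2 scale (SE; Benjamini-Hochberg adjusted p from edgeR's quasi-likelihood fit = 0.832). The exact 2-sided permutation test gave p = 0.6. Without Cx43KO replicate 3 the fitted difference was −0.80. A retained-intron transcript of Kdr, which shares 1820 bases with exons 1 to 11 of the 30 exons read here, had 1, 32 and 2 counts in Cx43FL and 14, 6 and 1 in Cx43KO. By the same reasoning as for Flt1, at least 177 of the 178 counts of Cx43KO replicate 3 lay outside the exons of that transcript, whereas the 32 counts of Cx43FL replicate 2 were matched by 32 on it.

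Tek (Tie2, the receptor for angiopoietins; chromosome 4, 94739289 to 94874976, plus strand) had 8, 0 and 0 counts in Cx43FL and 0, 0 and 0 in Cx43KO. Its partner Tie1 (chromosome 4, 118471191 to 118490061, minus strand) had 12, 1 and 1 counts in Cx43FL and 0, 0 and 0 in Cx43KO. Nearly all counts of both genes came from Cx43FL replicate 1, and the Cx43KO libraries had none. A count of 0 in them allows a level of up to 0.186, 0.121 and 0.0926 CPM (3 counts in each library, counting error only).

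Pooled over the group and set against the 3 counts that an empty group allows (0.0409 CPM), Tie1 was at least 7.51-fold lower in Cx43KO than its 0.307 CPM in Cx43FL. Tek was at least 4.29-fold lower than its 0.175 CPM on the same basis. These bounds cover the counting error of the empty Cx43KO group only. They take the Cx43FL counts as exact, leave out the spread between libraries, and rest on Cx43FL replicate 1. Without that library Tek had 0 counts in both groups, which leaves no bound, and Tie1 had 2 counts in Cx43FL, too few to rest a bound on. The exact 2-sided permutation tests gave p = 0.1 for Tie1, the smallest the design allows, and p = 1 for Tek. All 3 Cx43KO libraries lay below all 3 Cx43FL libraries for Tie1, as in 7.45% of the genes that were tested, but 2 of those had 1 count each, and Tek was at 0 in 2 of the 3 controls too. Neither gene had enough counts to be tested with the others.

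**Figure D3:**
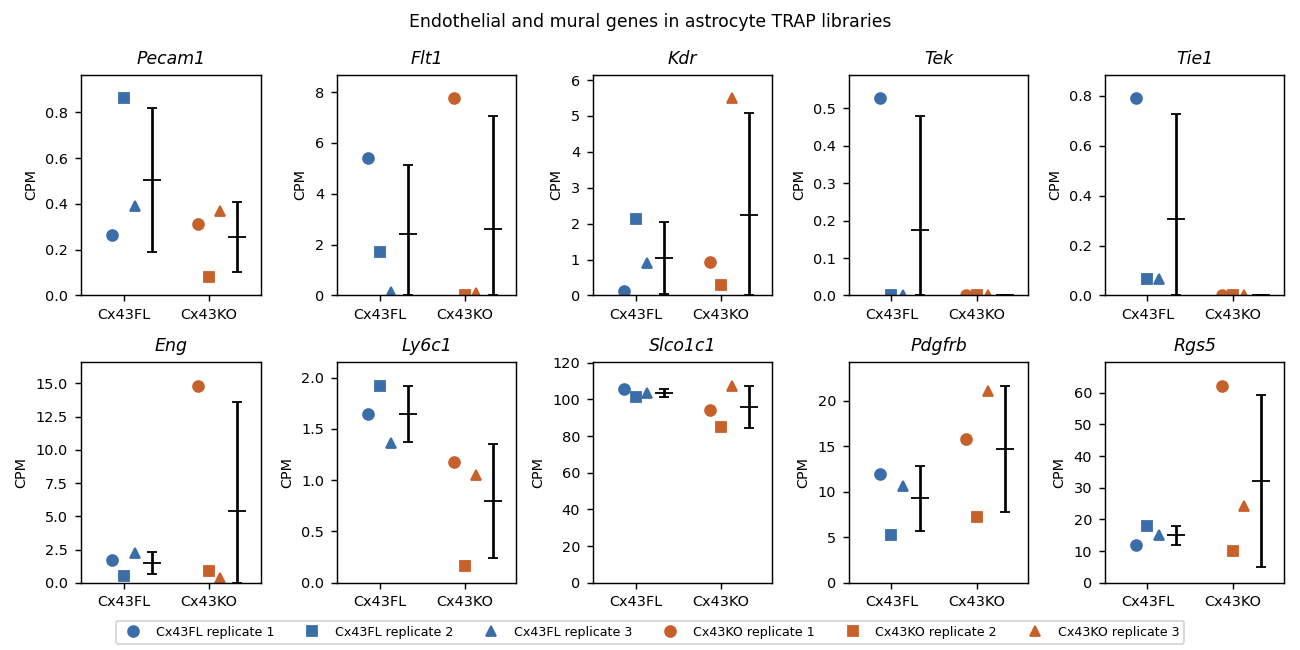
Level of each of the 10 vessel genes in each library, in CPM, with the mean and SD of the 3 Cx43FL and 3 Cx43KO libraries and a separate scale for each gene (bars cut at 0). The Slco1c1 libraries lay between 84.8 and 108 CPM, whereas Flt1, Kdr and Eng each rose far above the rest in 1 or 2 libraries.

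Eng (endoglin, the TGF-beta family co-receptor; chromosome 2, 32646595 to 32682669, plus strand) had 26, 8 and 34 counts in Cx43FL and 239, 22 and 12 in Cx43KO. Cx43KO replicate 1 was far above the other 5 libraries, which overlapped. The levels were 1.49 ± 0.864 CPM in Cx43FL and 5.36 ± 8.21 in Cx43KO (SD, n = 3 each), a difference of 1.84 ± 1.39 on the log2 scale (SE; Benjamini-Hochberg adjusted p from edgeR's quasi-likelihood fit = 0.701). It was the widest mean difference of the 7 tested genes, and without Cx43KO replicate 1 it was −1.24. In the exact 2-sided permutation test p was 0.9. The high library was high on a shorter Eng transcript too, whose 863 shared bases lie in exons 7 to 14 of the 15 of the one read here. The shorter one had 5, 0 and 0 counts in Cx43FL and 131, 5 and 0 in Cx43KO, so that at least 108 of the 239 counts lay outside its exons. The transcript shares 61 bases with Fpgs on the opposite strand, and the library kit was not stated to keep the strand.

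**Figure D4:**
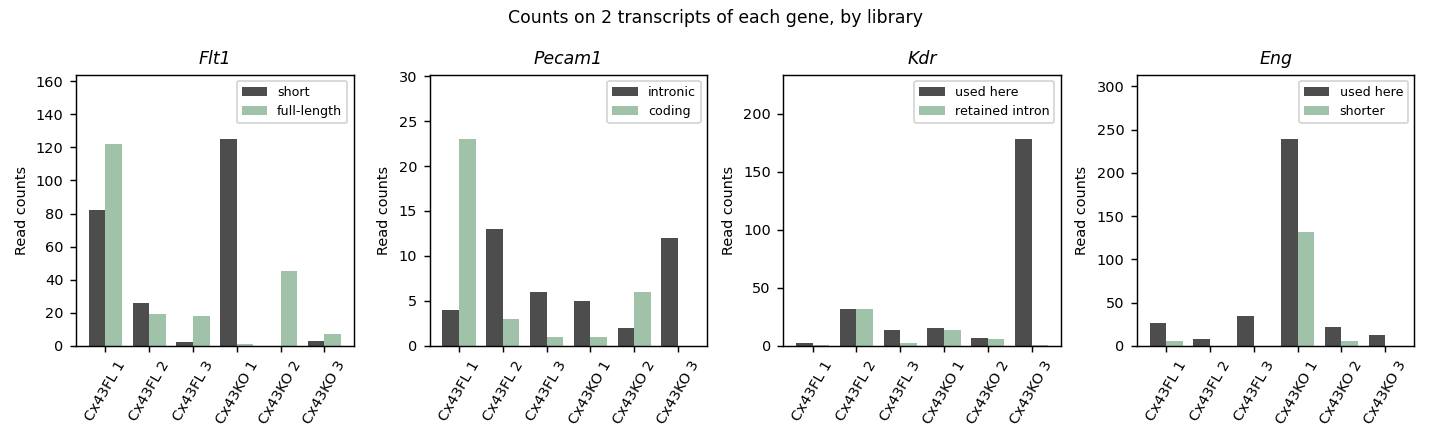
Read counts on the transcript used (dark bars) for each of Flt1, Pecam1, Kdr and Eng and on a second transcript of the same gene (pale bars), in each of the 6 libraries. Cx43KO replicate 1 had 125 counts on the short Flt1 transcript and 1 on the full-length one, and Cx43KO replicate 3 had 178 counts on the 30-exon Kdr transcript and 1 on the retained-intron one.

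Ly6c1 was the one tested vessel gene whose groups did not overlap. It had 25, 29 and 21 counts in Cx43FL and 19, 4 and 34 in Cx43KO, 2 of whose libraries were the deepest. In CPM these were 1.65, 1.92 and 1.37 against 1.18, 0.161 and 1.05, so that all 3 Cx43KO libraries lay below all 3 controls. The means were 1.65 ± 0.278 and 0.797 ± 0.555 CPM (SD, n = 3 each), and the difference of −1.04 ± 1.22 on the log2 scale did not pass (SE; Benjamini-Hochberg adjusted p from edgeR's quasi-likelihood fit = 0.809). The exact 2-sided permutation test gave the smallest p that 3 against 3 allow, 0.1. Ly6c2 had 0, 2 and 3 counts in Cx43FL and 54, 19 and 8 in Cx43KO, and Ly6a, a related surface protein, had 45, 26 and 0 against 6, 111 and 500. The near copy was thus higher in the Cx43KO libraries, in which Ly6c1 was lower, and whether reads moved between them was not tested.

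Slco1c1 (chromosome 6, 141524368 to 141570177, plus strand) was the gene with the smallest spread. It had 1607, 1531 and 1593 counts in Cx43FL and 1522, 2110 and 3485 in Cx43KO. In CPM these were 106, 102 and 104 against 94.5, 84.8 and 108, and the groups overlapped through Cx43KO replicate 3 alone. The highest library was 1.04-fold above the lowest within Cx43FL and 1.27-fold within Cx43KO, whereas the same ratio was 41.5 for Flt1 within Cx43FL and 40.05 for Eng within Cx43KO. The means were 104 ± 2.15 and 95.6 ± 11.4 CPM (SD, n = 3 each), a difference of −0.12 ± 0.28 on the log2 scale (SE; Benjamini-Hochberg adjusted p from edgeR's quasi-likelihood fit = 0.917). The exact 2-sided permutation test gave p = 0.4, and the difference stayed between −0.21 and −0.037 whichever library was omitted. The 5 markers of choroid plexus epithelium, which also makes this transporter, summed to 9895, 459 and 15295 CPM in Cx43FL and to 32774, 26216 and 22030 CPM in Cx43KO, so that these groups did not overlap. Single markers with all Cx43KO libraries above all controls were 4 of 5 (background 8.08%), and 0 were called by edgeR or DESeq2. The part of choroid plexus RNA in the Slco1c1 values was not tested.

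The mural genes were present in all 6 libraries and had higher means in Cx43KO without passing the test. Pdgfrb (chromosome 18, 61045150 to 61085061, plus strand), the PDGF-B receptor of pericytes, had 182, 79 and 163 counts in Cx43FL and 254, 181 and 683 in Cx43KO. In CPM these were 12, 5.24 and 10.6 against 15.8, 7.27 and 21.1, with Cx43KO replicate 2 inside the control range and the other 2 above it. The difference was 0.66 ± 0.64 on the log2 scale (SE; Benjamini-Hochberg adjusted p from edgeR's quasi-likelihood fit = 0.765). Its exact 2-sided permutation p was 0.4, and with each library left out the difference ran from 0.31 to 0.99.

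Rgs5 (chromosome 1, 169655501 to 169695813, plus strand) had 183, 271 and 230 counts in Cx43FL and 1003, 248 and 781 in Cx43KO. In CPM these were 12.1, 18 and 15.0 against 62.3, 9.97 and 24.1, with 2 Cx43KO libraries above the control range and replicate 2 below it. The means were 15.0 ± 2.96 and 32.1 ± 27.1 CPM (SD, n = 3 each), a difference of 1.10 ± 0.63 on the log2 scale (SE; Benjamini-Hochberg adjusted p from edgeR's quasi-likelihood fit = 0.632). The exact 2-sided permutation test gave p = 0.5. Without Cx43KO replicate 1 the difference was 0.18. A second annotated Rgs5 transcript had 0 counts in all 6 libraries.

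As a group, the mural pair summed to 24.0, 23.2 and 25.6 CPM in Cx43FL and to 78.0, 17.2 and 45.2 in Cx43KO. The 7 endothelial genes other than Slco1c1 summed to 10.5, 7.23 and 5.08 CPM against 25.0, 1.41 and 7.38. In both sums Cx43KO replicate 1 was the highest library and Cx43KO replicate 2 the lowest, and the controls lay between them. Of the 25.0 CPM of the endothelial sum in Cx43KO replicate 1, Eng had 14.8 and Flt1 7.76. The summed markers of neurons, oligodendrocytes, red blood cells, choroid plexus epithelium and perivascular fibroblasts were also highest in Cx43KO replicate 1. Other lists were not: further endothelial markers, described below, were highest in Cx43KO replicate 2 (327 CPM). Further mural markers and microglia markers were highest in Cx43KO replicate 3 (105 and 118 CPM). The 8 oligodendrocyte markers summed to 2662 CPM in Cx43KO replicate 1 and to 610 to 1015 CPM elsewhere, and the 5 red blood cell genes to 15.0 CPM in that library and to 1.76 to 4.54 elsewhere. Perivascular fibroblast markers summed to 23.1 to 45.9 CPM in Cx43FL and 28.1 to 95.2 in Cx43KO, which overlapped, and microglia markers to 33.2 to 60.6 against 77.4 to 118, which did not. All 12 neuron markers had differences above 0 (median 1.05), of which 0 were called by edgeR and 1, Gad2, by DESeq2. The part of these cell types in the vessel gene values was not tested.

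**Figure D5:**
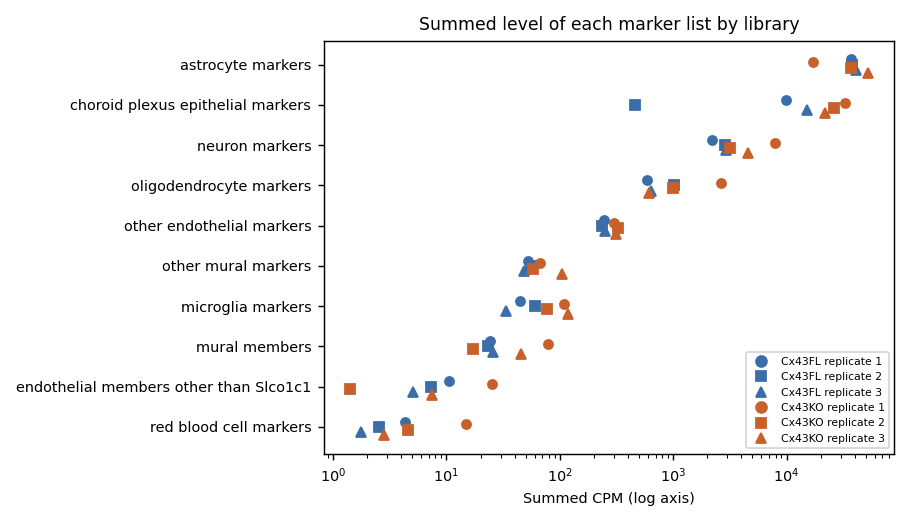
Summed CPM of each marker list in each library, on a log axis, for the vessel genes, further endothelial and mural markers, and markers of the other cell types. Cx43KO replicate 1 was lowest for astrocyte markers (17233 CPM) and highest for neuron markers (7903 CPM), and Cx43KO replicate 2 was lowest for the endothelial genes other than Slco1c1 (1.41 CPM).

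Further markers of the same cells gave no called gene either, and Cdh5 was low in 5 of the 6 libraries. The list was not uniform: Erg was at 0 throughout, whereas Fli1 had 8 to 244 counts a library, both named after their values were seen. Cldn5, the claudin of brain endothelial tight junctions, had 19, 2 and 17 counts in Cx43FL and 62, 0 and 70 in Cx43KO. Its difference was 1.26 ± 1.63 on the log2 scale (SE; Benjamini-Hochberg adjusted p from edgeR's quasi-likelihood fit = 0.828). Cdh5, the cadherin of endothelial junctions, had 1, 3 and 3 counts against 11, 4 and 101. It had too few counts to enter the fit over all 6 libraries, and most of its counts lay in Cx43KO replicate 3. Erg, an endothelial transcription factor, had 0 counts in all 6 libraries.

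Of the 25 further endothelial markers, 17 were tested: 0 were called, 14 differences were above 0 and 3 below, and the median was 1.01, beside 0.07 for all genes. The sums did not overlap, at 237 to 251 CPM in Cx43FL and 299 to 327 in Cx43KO. A few abundant genes, named after their values were seen, made up most of them. Of 244 CPM in Cx43FL replicate 1, Ramp2 had 100, Slc2a1 45.5, Mfsd2a 44.6 and Slc16a1 27.7. These sums therefore say little of the lower markers, for which no separate sum was taken. The highest was Ramp2, the adrenomedullin receptor partner, with 1518, 1202 and 1246 counts against 752, 3141 and 2626, a difference of −0.04 ± 0.38. Single markers with every Cx43KO library above every control were 2 of 17 (background 8.08%), named here after their values were seen. Slc16a1, the monocarboxylate transporter MCT1 of endothelium and also of glia, had 421, 339 and 419 counts against 1076, 1111 and 1635, a difference of 1.06 ± 0.37 (SE; Benjamini-Hochberg adjusted p from edgeR's quasi-likelihood fit = 0.540). The other was Ocln, the tight junction protein occludin, with 19, 6 and 147 counts against 234, 336 and 329.

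The 17 further mural markers had 12 tested members, of which 0 were called, 7 were above 0 and 5 below, with a median of 1.30. The proteoglycan NG2, Cspg4, a marker of pericytes and of oligodendrocyte precursors, had 4, 6 and 0 counts in Cx43FL and 245, 62 and 93 in Cx43KO. Its groups did not overlap, and the difference of 4.92 ± 1.46 on the log2 scale did not pass (SE; Benjamini-Hochberg adjusted p from edgeR's quasi-likelihood fit = 0.492). DESeq2 with its prior gave an adjusted p of 0.0736, also above the threshold. The study, which used DESeq2, lists Cspg4 among its upregulated transcripts. It also describes most transcripts of other cell types as absent, with Cspg4 for oligodendrocytes and Cldn5 for endothelium among its examples. Abcc9 (6, 5 and 33 counts against 89, 245 and 213) and the aminopeptidase Anpep (17, 0 and 11 against 50, 141 and 290) were the other 2 of 12 with groups apart (background 8.08%), both named after their values were seen. Acta2, smooth muscle actin, had 11, 8 and 77 counts against 79, 31 and 714, with groups that overlapped, and Myl9, a myosin light chain, was the most abundant of the list. Kcnj8, a pericyte potassium channel subunit named after its values were seen, had 0 counts throughout. The further mural markers were therefore not uniform, since some were nearly empty in the controls and others, such as Myl9, were abundant in both groups.

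The ligands of the vessel receptors and their partners were not called either. Of 18 ligands and partners, 15 were tested, 0 were called, and 12 differences were above 0 and 3 below (median 0.31). Vegfb, a ligand of Flt1, was the highest, with 2757, 2720 and 2124 counts in Cx43FL and 1977, 3973 and 6160 in Cx43KO. Its difference was −0.08 ± 0.29 on the log2 scale (SE; Benjamini-Hochberg adjusted p from edgeR's quasi-likelihood fit = 0.948). Vegfa, the main ligand of Kdr and a known astrocyte product, named here after its values were seen, had 2043, 1374 and 1649 counts against 655, 1613 and 3264, and its difference was −0.69 ± 0.37 (same test, adjusted p = 0.612). Cx43KO replicate 1, high for the short Flt1 transcript, Eng and Rgs5, was the lowest library for both ligands. The list was not uniform in this. For Pdgfb, named after its values were seen, the same library was the highest, at 11.8 CPM against 0.362 to 3.52 elsewhere.

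The library pattern of the endothelial genes was not shared closely by the genes that form it. The mean profile of the 5 that were tested, centred over the 6 libraries on the log2 scale, stood at 0.21, 0.14 and −0.19 in Cx43FL and 1.0, −0.98 and −0.17 in Cx43KO. The single genes lay at a mean absolute distance of 0.41 (Ly6c1) to 1.08 (Flt1) from it. Among 13501 other genes with a mean of at least 1 CPM, the nearest were Snx16 at 0.097, Mgat3 and N4bp2 at 0.137 each, Errfi1 at 0.141 and Prkab2 at 0.142. They were picked as the smallest of 13501 distances, so the distances of the endothelial genes cannot be compared with theirs. The profile was set mainly by Cx43KO replicate 1 at its top and Cx43KO replicate 2 at its bottom.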

How the data were processed

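Within Eoulsan, the authors filtered the reads, aligned them to mm10 with STAR, dropped those that mapped to several places and counted the rest on the Ensembl annotation with HTSeq-count 0.5.3; the deposited values are raw counts per Ensembl transcript, 3 Cx43FL and 3 Cx43KO libraries. Of 75466 transcripts, 73157 were matched to GENCODE M21 of the same build; the 2309 others, not used, held 1.60% to 1.78% of the counts. Depth was 33423491 to 77030398 counts a library over all transcripts, and 14774601 to 34692885 over the single transcripts of the genes tested. CPM were taken from the latter, with TMM factors, so that 3 counts, the limit that a count of 0 allows, were 0.0926 to 0.199 CPM.

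The genotype contrast was fitted in edgeR 4.0.16 under R 4.3.3 (TMM, filterByExpr, quasi-likelihood test, genotype alone) over 13545 genes. The biological coefficient of variation from the common dispersion, a summary over these genes, was 0.600. Genes were called at a Benjamini-Hochberg adjusted p below 0.05 with a mean normalized count above 50. Standard errors were derived from the fold change and the F statistic. The design had assumed 1 count per gene; as the files give transcripts, each gene was read from its most counted transcript. For single genes, 2-sided permutation tests were exact and used log2 of CPM with 0.5 added. Every pair of libraries differed by more than sampling noise (chi-square per degree of freedom 32.5 or more). Alternatives were DESeq2 1.42.0 and its size factors, other filters, a replicate block, sums of transcripts, the coding transcript (chosen after seeing the data) and leaving out each library. Tests were tested on simulated data.

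The members, marker lists and tests were chosen with earlier results of these data known. Named genes were the 10 members in full, the most abundant gene of the other vessel lists and of the ligands, genes past the threshold, Cldn5, Cdh5, Cspg4 and Acta2, and the 5 genes nearest the mean endothelial profile; other names are marked as chosen after their values were seen. Sequences and windows of 50 bases came from GENCODE transcripts.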

Additional observations from a re-analysis of the deposited data

How the results depend on the processing

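No vessel gene was called under any of the alternatives run, and the lowest adjusted p among them ranged from 0.416 (Eng, without Cx43KO replicate 3) to 0.934 (without Cx43FL replicate 1). Over all genes, DESeq2 called 99 higher and 14 lower with its prior and 118 and 19 without it, the replicate block gave 2 higher, and a minimum of 10 counts in every library or summed transcripts gave 0. The cause of these differences was not tested. With single libraries left out, the count ranged from 0 to 11 (11 without Cx43KO replicate 1). The minimum of 10 counts left 3 vessel genes to be tested and 0 with every Cx43KO library below the controls; without a filter these were 10 and 2, and with libraries left out 1 to 2 below and 0 to 2 above (Pdgfrb and Rgs5, without Cx43KO replicate 2). The median difference of the tested vessel genes ran from −0.11 (without Cx43KO replicate 1) to 0.99. Of 94 alternatives for single vessel genes, 87 kept the direction and 0 passed the threshold; in 4, by DESeq2, no adjusted p was given. The direction turned for Flt1 with the replicate block (−1.52) and summed transcripts (−1.23), and with libraries left out for Flt1 (−5.47 to 1.46), Kdr (−0.80 to 2.07) and Eng (−1.24 to 2.39). Same-numbered libraries did not deviate together (correlations of 0.011, −0.0040 and −0.055), so these values gave no ground to pair libraries by number. With so few libraries they cannot exclude pairing by litter or preparation, and the main fit took the libraries as unpaired. Depth limits Pecam1, Tek and Tie1, which were fitted in edgeR without the filter (−0.97, −4.85 and −5.63).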
